A study of Mus musculus with 11 samples.

Results

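A set of 10 genes for secreted glycoproteins of the extracellular matrix was followed in mouse mitral leaflets, which shut off the left atrium when the ventricle contracts. The genes were taken by name: the tenascins Tnc and Tnxb, periostin (Postn), the thrombospondins Thbs1, Thbs2 and Comp, Sparc, fibronectin (Fn1), and the matrilins Matn2 and Matn4. They were chosen with earlier results of these data known, so their counts beside the shares of all genes are descriptions, not independent tests. All 10 are listed in both deposited tables, which together name 28591 genes. RNA was sequenced from 11 libraries. The Ift88 experiment held 3 knockout libraries, from mice with an NfatC1-driven Cre and Ift88 f/f, both copies floxed, and 2 wild-type libraries with the same Cre and Ift88+/+. In the Dzip1 experiment 3 libraries came from heterozygotes for an S14R allele (Dzip1 S14R/+) and 3 from Dzip1+/+ mice. Every Ift88 library thus carried the Cre, whose promoter is that of a gene of the valve endocardium, and the labels give neither age nor sex nor say which leaflet cells recombined.

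Most of these glycoproteins are matricellular: they are secreted into the matrix and act on how cells bind it and how growth factors reach them, rather than carrying load. Fibronectin is an early scaffold on which cells lay down other fibres, and periostin and tenascin C are made by the mesenchymal cells of developing valves. Thrombospondins bind cell-surface receptors and matrix proteins through calcium-dependent modules, SPARC binds collagen, and matrilins link collagen fibrils to other matrix components. Ift88 encodes a protein of intraflagellar transport, which builds cilia, and the product of Dzip1 sits at the base of the cilium.

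Total counts ranged from 23.4 to 40.3 M in the Ift88 knockout and were 31.4 and 53.8 M in its wild type. They ranged from 86.0 to 93.5 M in S14R/+ and from 75.1 to 79.1 M in its wild type. Ift88 stood at 3.03, 4.12 and 0.428 CPM (counts scaled by the library total) in the knockout libraries, against 6.31 and 21.2 CPM in the wild type, so each knockout library lay below both wild-type libraries. The counts do not show which exons remained. Dzip1 stood at 29.5, 28.0 and 28.2 CPM in S14R/+ and at 30.4, 27.6 and 32.3 CPM in its wild type, and gene counts do not read the S14R substitution. The Ift88 wild-type libraries stood apart from each other. Summed over 14 cardiomyocyte markers, the knockout libraries held 31085 to 41933 CPM, against 61679 CPM in wild-type replicate 1 and 121 CPM in replicate 2. Summed over 8 endothelial markers, the knockout held 1637 to 2323 CPM, against 219 CPM in wild-type replicate 1 and 2712 CPM in replicate 2. The 10 markers of interstitial cells and fibroblasts, the leaflet's own matrix-making cells, summed to 6829 to 10043 CPM in the knockout, against 2069 and 7314 CPM in the wild type. None of these 32 markers was at 0 in any library, and 8 of the 10 interstitial, 7 of the 8 endothelial and 9 of the 14 cardiomyocyte markers had positive log2 fold changes, knockout over wild type. edgeR's estimate of the variation between libraries of a group, the biological coefficient of variation, was 87.7% for Ift88 and 7.85% for Dzip1. The labels do not say that libraries came from separate animals, so a p-value here speaks of the spread among these libraries alone. The 95% intervals of fold changes come from the same edgeR fits and cover that spread only. In bulk tissue, fewer cells of a type and less RNA per cell cannot be told apart.

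**Figure D1:**
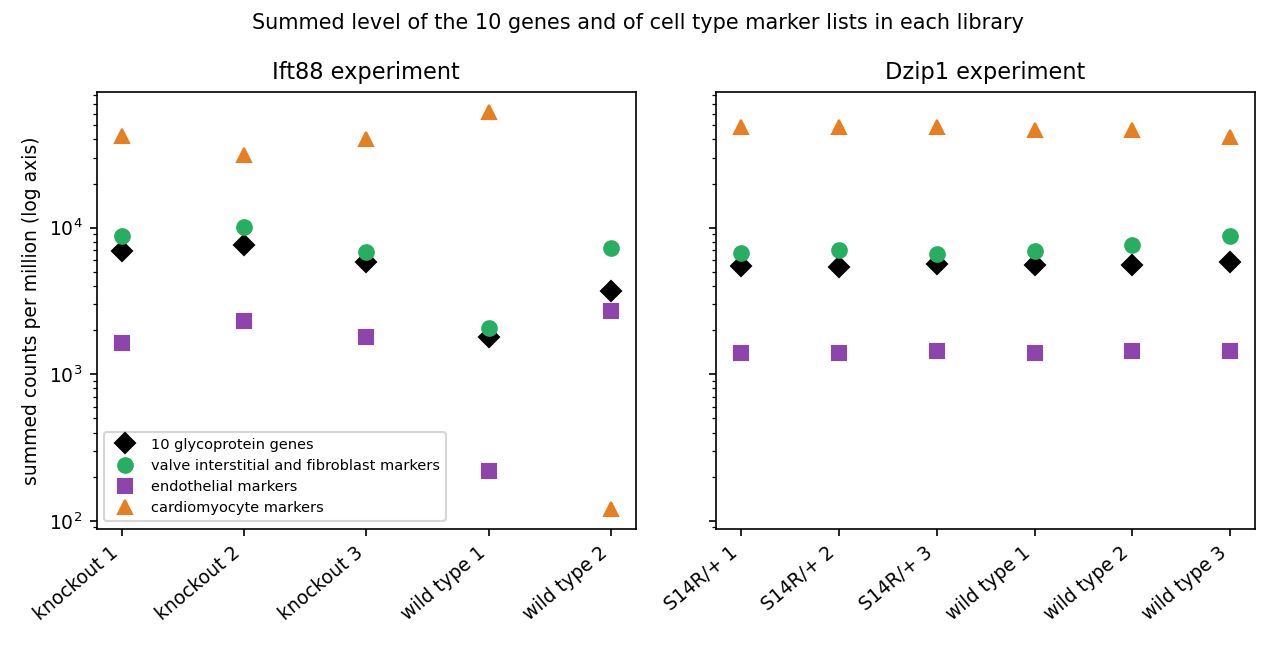
Summed CPM (log axis) of the 10 glycoprotein genes (black diamonds) and of 3 cell type marker lists in each library, Ift88 experiment left and Dzip1 experiment right. The glycoprotein sum lies between 5863 and 7597 CPM in the Ift88 knockout libraries, above 1786 and 3712 CPM in the wild type, and the cardiomyocyte sum of wild-type replicate 2 is 121 CPM.

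The first comparison asked how the leaflet's glycoprotein transcripts differ when Ift88 is knocked out. The group stood higher in the knockout, with tenascin C at about 13.4 times its wild-type level and thrombospondin 1, periostin, fibronectin and thrombospondin 2 at 3.00 to 5.30 times, though no gene passed the edgeR test after adjustment and the last 4 folds moved by over 1.5 times without wild-type replicate 2. Summed, the 10 genes reached 6906, 7597 and 5863 CPM in the knockout libraries, against 1786 and 3712 CPM in the wild type. For 8 of the 10 the lowest knockout value was above the higher wild-type value, as it was for 15.4% of the 14244 tested genes. For 0 of the 10 the groups were separated the other way (7.55% of all genes). The median log2 fold change of the 10 was 1.65, against -0.01 over all tested genes, and 9 of the 10 were positive, against 49.4% of all genes. With edgeR's quasi-likelihood test and Benjamini-Hochberg adjustment over all tested genes, 0 of the 10 passed 0.05 and 0% of all genes did. At an unadjusted p under 0.05, edgeR had 4 of the 10 (6.01% of all genes), 4 of them higher (4.75%) and 0 lower (1.26%). DESeq2 called 2 after adjustment (1.53% of all genes), Tnc and Thbs1, both higher (1.48%). limma-voom called 0 of the 10 and 0% of all genes. Fold changes below are knockout over wild type from the edgeR fit, with their standard errors.

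Tnc encodes tenascin C, a large many-armed glycoprotein that loosens the hold of cells on fibronectin. The gene spans 63959785 to 64047015 of chromosome 4 (GRCm38, reverse strand). Tnc reached 67.3, 69.7 and 95.2 CPM in the knockout (2111, 2806 and 2224 counts), against 6.05 and 4.20 CPM in the wild type (190 and 226 counts). The lowest knockout value was far above the higher wild-type value. The log2 fold change of Tnc was 3.75 ± 0.503 (SE), a 13.4-fold difference with a 95% interval of 5.75 to 31.3. Among the 14244 genes Tnc had the smallest edgeR p, but it came to place 16 after the correction for transcript length and to places 1 to 113 with 1 library left out. Its adjusted p in edgeR was 0.802, and DESeq2 gave an adjusted p of 2.70e-08. In the authors' deposited table its log2 fold change is 3.15 with an adjusted p of 2.86e-09. The 16 alternative settings include a looser adjusted p threshold, which leaves the fit unchanged. Over them the log2 fold change of Tnc stayed between 2.81 and 4.22. With 1 library left out it lay between 3.37 and 4.22. Without wild-type replicate 1 the knockout is set against replicate 2 alone, the library with 121 CPM of cardiomyocyte markers. Actc1, one of those markers, had the smallest p in that fit, where Tnc had place 113. The upstream sequences of Tnc and of 3 other members follow, since these are the member promoters that held a motif searched here.

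The sequences are the 180 bases before the transcription start in RefSeq's GRCm38.p6 table, read 5′ to 3′ on the gene's own strand, with motif matches in capitals. They cover chr4:64047016-64047195 on the reverse strand for Tnc, chr17:34670355-34670534 on the forward strand for Tnxb, chr3:54360927-54361106 on the forward strand for Postn and chr17:14694263-14694442 on the reverse strand for Thbs2.
Tnc: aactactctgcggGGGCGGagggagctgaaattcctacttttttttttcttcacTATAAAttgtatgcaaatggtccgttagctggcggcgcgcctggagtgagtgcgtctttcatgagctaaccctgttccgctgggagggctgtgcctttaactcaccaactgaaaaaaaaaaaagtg
Tnxb: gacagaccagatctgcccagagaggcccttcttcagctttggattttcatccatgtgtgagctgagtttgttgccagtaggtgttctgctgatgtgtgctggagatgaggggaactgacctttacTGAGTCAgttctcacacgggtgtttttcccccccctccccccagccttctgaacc
Postn: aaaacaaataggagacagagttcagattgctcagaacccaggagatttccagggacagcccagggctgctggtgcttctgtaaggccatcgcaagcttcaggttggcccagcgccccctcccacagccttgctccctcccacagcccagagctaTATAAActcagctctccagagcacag
Thbs2: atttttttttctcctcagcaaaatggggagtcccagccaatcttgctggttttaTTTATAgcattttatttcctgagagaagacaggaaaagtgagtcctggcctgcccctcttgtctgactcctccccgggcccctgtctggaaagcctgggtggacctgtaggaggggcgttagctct
The search covered 250 bases before the start on both strands, for the TATA box, the GC box and the sites of AP-1 and TEAD factors. The AP-1 letters read the same on both strands, so the match in Tnxb is 1 site counted once, and no other matches overlapped. The TATA box letters TATAAA were found in 3 of the 6 members with a sequence, 26 bases before the start in Postn, 126 in Tnc and, on the opposite strand, 126 in Thbs2, against 13.0% of 27025 promoters. The GC box letters GGGCGG were found in 1 of the 6, 167 bases before the start of Tnc (32.9% of promoters), and the AP-1 letters TGANTCA in 1, 55 bases before the start of Tnxb (6.87%). The TEAD letters GGAATG were found in 0 of the 6 (12.6%). A match is a description of these letters only. The other members with a sequence were Sparc and Matn4, and Thbs1, Fn1, Matn2 and Comp were not in the table.

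Tnxb encodes tenascin X, which binds collagen and whose loss in humans gives a form of Ehlers-Danlos syndrome. It was scarce in this experiment. The knockout libraries had 11, 185 and 80 counts, or 0.351, 4.59 and 3.42 CPM, against 6 and 0 counts in the wild type, or 0.191 CPM and a value below the 0.0558 CPM that a floor of 3 counts allows. Knockout replicate 1 lay close to wild-type replicate 1, and the log2 fold change of 4.55 ± 2.59 (SE) had an interval from -1.73 to 10.8. Neither edgeR (adjusted p = 0.844) nor DESeq2 (adjusted p = 0.467) called it.

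Postn, one of the most abundant transcripts of the group, stood at 3042, 2379.6 and 1632 CPM in the knockout libraries, against 313 and 1076 CPM in the wild type. The groups did not overlap, though wild-type replicate 2 stood nearer to the knockout than to replicate 1. Its log2 fold change was 1.73 ± 0.608 (SE), a 3.31-fold difference with an interval of 1.19 to 9.20. The Postn value was 1.16 when wild-type replicate 1 was omitted and 2.61 when replicate 2 was. It did not pass in edgeR (adjusted p = 0.802) or DESeq2 (adjusted p = 0.151). Periostin is required for valve cushions to mature into fibrous leaflets in mice.

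Among the thrombospondins, Thbs1 and Thbs2 stood higher in the knockout and Comp did not. Thbs1, whose product activates latent TGF-beta and restrains angiogenesis, stood at 197, 449.7 and 218 CPM in the knockout libraries, against 22.3 and 83.4 CPM in the wild type. Thbs1 had a log2 fold change of 2.41 ± 0.656 (SE), a 5.30-fold difference with an interval of 1.76 to 16.0. It was 1.79 when wild-type replicate 1 was omitted and 3.37 when replicate 2 was. edgeR gave an adjusted p of 0.802 and DESeq2 0.0323, and the authors' deposited table gives 0.0458 with a log2 fold change of 1.80. In that table the other 8 members have adjusted p from 0.198 to 0.901, while Tnc and Thbs1 are below 0.05 with 1.43% of its genes. Thbs2, a close relative that also restrains angiogenesis and limits matrix proteases, stood at 136, 215 and 131 CPM in the knockout, against 17.2 and 88.7 CPM in the wild type. The log2 fold change of Thbs2 was 1.58 ± 0.652 (SE), with an adjusted p of 0.802 in edgeR. Omitting wild-type replicate 1 brought it to 0.87, omitting replicate 2 to 2.91, and the correction for transcript length to 0.92. For both genes knockout replicate 2 was the highest library and wild-type replicate 1 the lowest.

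Comp, the cartilage oligomeric matrix protein or thrombospondin 5, is best known from cartilage and tendon. Its level was 6.38, 10.7 and 2.83 CPM in the knockout libraries, against 2.10 and 21.8 CPM in the wild type. The knockout values lay between those of the wild-type libraries. The log2 fold change of -0.84 ± 1.08 (SE) turned to 1.34 once wild-type replicate 2 was left out. Leaving out wild-type replicate 1 gave -1.71. With all 5 libraries edgeR did not call Comp.

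Sparc, which encodes the collagen-binding protein osteonectin, stood at 2625.5, 2265 and 3069 CPM in the knockout libraries, against 1351 and 1899 CPM in the wild type. The groups did not overlap, but the difference was small: a log2 fold change of 0.60 ± 0.405 (SE), or 1.51-fold with an interval of 0.765 to 2.99. Fn1 stood at 758, 2155 and 653 CPM in the knockout, against 45.7 and 508 CPM in the wild type. For Fn1 the 2 wild-type libraries differed by a larger factor than the group means did, and its log2 fold change of 2.11 ± 1.04 (SE) had an interval from -0.41 to 4.63. Leaving out wild-type replicate 1 gave 1.23, and leaving out replicate 2 gave 4.38. Neither gene was called by edgeR or DESeq2.

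Matn2, a matrilin of connective tissues outside cartilage, stood at 65.4, 43.6 and 53.1 CPM in the knockout libraries, against 27.6 and 24.6 CPM in the wild type. The lowest knockout library lay well above the higher wild-type one, and the log2 fold change was 0.91 ± 0.412 (SE). Matn4 stood at 7.88, 3.35 and 5.82 CPM in the knockout, against 0.159 and 5.74 CPM in the wild type, where wild-type replicate 2 fell inside the knockout range. Its log2 fold change was 0.99 ± 1.48 (SE), and it depended on the wild-type library kept, at 0.02 with replicate 2 alone and 4.83 with replicate 1 alone. Neither matrilin passed in edgeR (adjusted p = 0.802 for Matn2 and 0.954 for Matn4). Exons of Matn2 and Matn4 share 70 and 71 bases with 9430069I07Rik and Rbpjl on the opposite strand, and since the strand setting is not given, reads of those bases cannot be told apart.

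**Figure D2:**
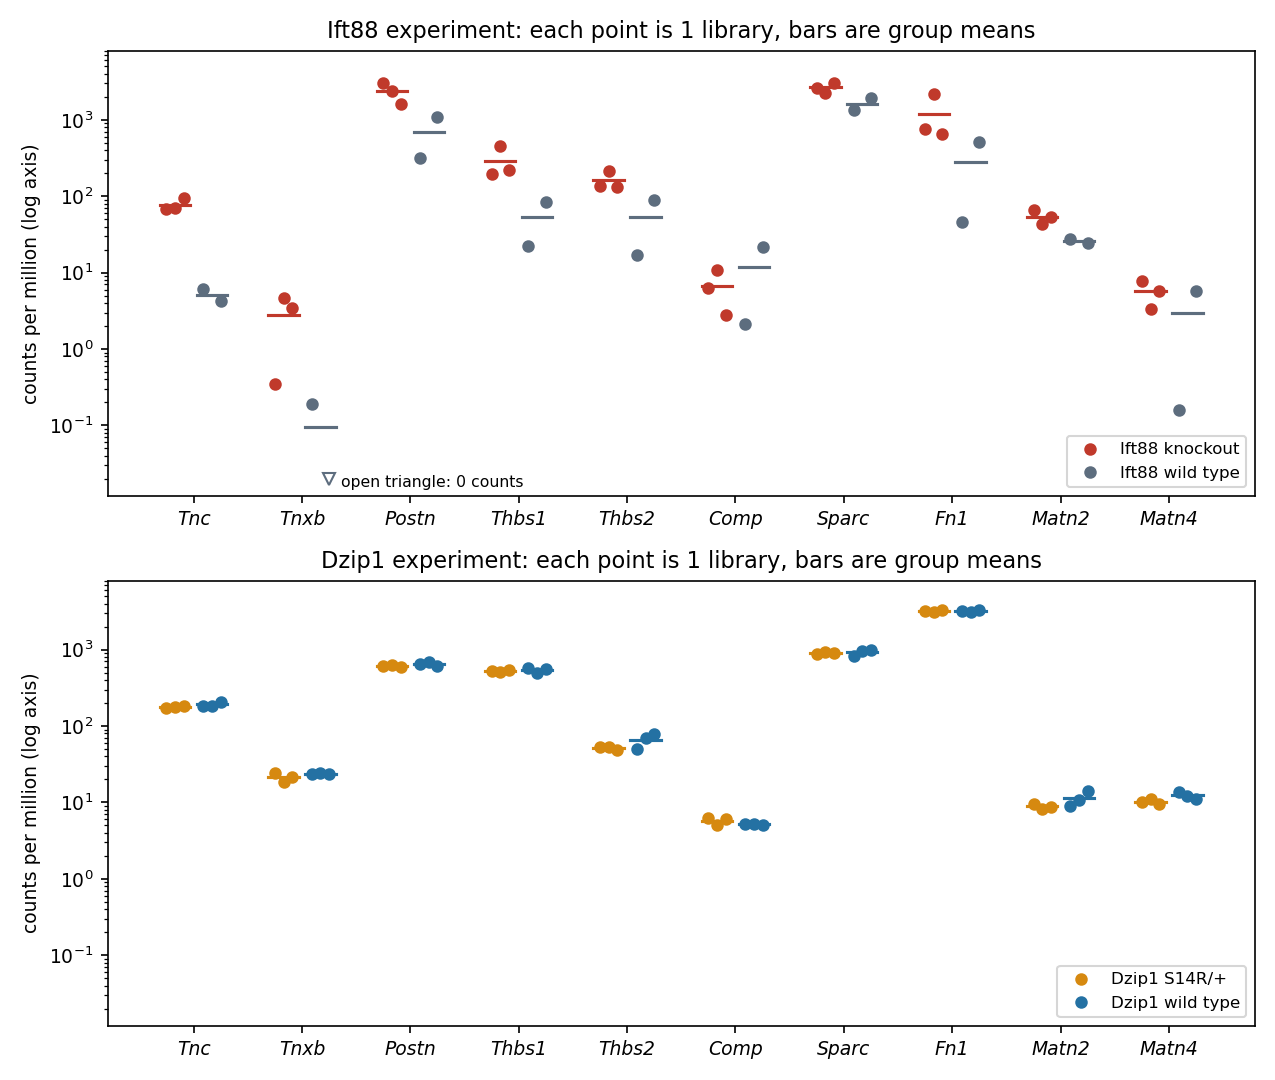
CPM (log axis) of each glycoprotein gene in each library, with bars at the group means, for the Ift88 experiment above and the Dzip1 experiment below. Tnc separates the Ift88 groups most clearly, with 67.3 to 95.2 CPM in the knockout against 4.20 and 6.05 CPM in the wild type, while the Dzip1 groups lie close together in all 10 genes.

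The titles of 3 libraries share the prefix IR28N: knockout replicates 1 and 2 and wild-type replicate 1. Within them the log2 fold change was 3.20 for Tnc, 2.82 for Postn, 3.54 for Thbs1 and 4.68 for Fn1. Only 1 wild-type library is left there, so effect sizes alone are given. The labels do not say what the prefix marks. Transcript length and cell type markers were set beside these differences. Across 14128 tested genes with a known length, the Spearman correlation between the log2 fold change and transcript length was 0.406. It is a description across genes of the same 5 libraries. The median log2 fold change was 0.74 among the genes of at least 4.85 kb, the longest of 5 equal groups, and 5 of the 10 members belong there. After each library was corrected for transcript length, the members' median was 1.04 in place of 1.65, Tnc had 2.81 ± 0.560 (SE), Thbs1 1.71 and Fn1 1.02, while Postn, whose transcript is 2.67 kb, had 1.72. Relative to the summed interstitial and fibroblast markers, a ratio chosen after the data were seen, 5 of the 10 genes had all knockout values above both wild-type values, as did 3.62% of all tested genes. They were Tnc, Postn, Thbs1, Thbs2 and Fn1. Per 1000 CPM of those markers, Tnc had 7.71, 6.94 and 13.9 CPM in the knockout and 2.92 and 0.574 CPM in the wild type. On the same scale Postn had 348, 237 and 239 CPM in the knockout and 151 and 147 CPM in the wild type, and Thbs1 had 22.5, 44.8 and 31.9 CPM in the knockout and 10.8 and 11.4 CPM in the wild type. The wild-type libraries, far apart in the marker sum, nearly met in Postn and Thbs1 on this scale. They did not in Tnc, in Thbs2 (8.31 and 12.1 CPM) or in Fn1 (22.1 and 69.5 CPM). Nor did they in any other member, with Sparc at 653 and 260 CPM and Matn2 at 13.3 and 3.36 CPM. Col1a1, Col1a2 and Vcan, matrix genes within that marker list named after their values were seen, themselves had log2 fold changes of 3.08, 2.53 and 2.41, where the 10 markers ran from -0.41 to 3.08 with a median of 0.62. The part of cell content in the differences was not tested beyond these values.

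**Figure D3:**
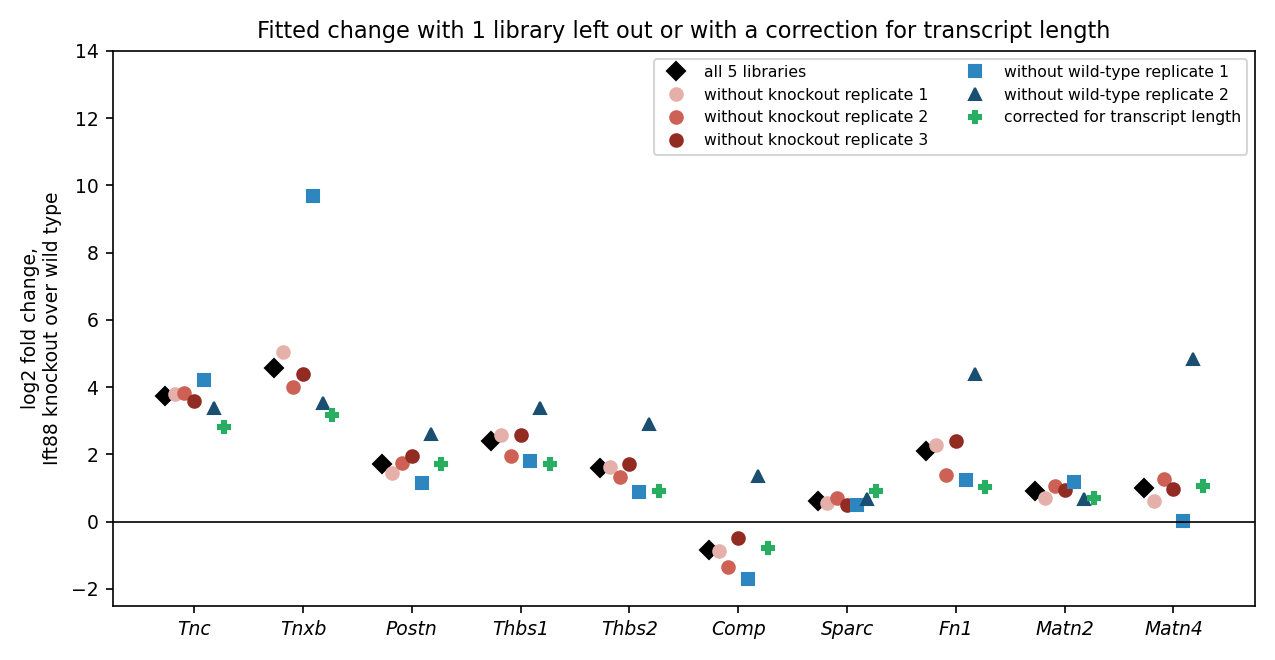
Log2 fold change of each gene, Ift88 knockout over wild type, with all 5 libraries (black), with 1 library left out, and after a correction for transcript length (green). Tnc keeps a value between 2.81 and 4.22, Comp changes sign without wild-type replicate 2, and Tnxb without wild-type replicate 1 is fitted against a library with 0 counts, so that its value depends on the fit.

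The second comparison asked how the same genes differ in leaflets heterozygous for Dzip1 S14R. Here all 10 glycoprotein transcripts were measured closely and differed little, by factors between 0.790 and 1.13. Summed, they reached 5462, 5411 and 5649 CPM in S14R/+ and 5525, 5588 and 5835 CPM in the wild type. The median log2 fold change was -0.09, against -0.0003 over all 16160 tested genes, and 1 of the 10 was positive, against 49.9% of all genes. edgeR, DESeq2 and limma-voom each called 0 of the 10 at an adjusted p of 0.05, and 0% of all genes. At an unadjusted p under 0.05 edgeR had 4 of the 10 (5.93% of all genes), 4 lower (3.53%) and 0 higher (2.41%). In 2 of the 10 every S14R/+ library lay below every wild-type library (5.86% of all genes), and in 0 did every S14R/+ library lie above (4.58%). Relative to the summed interstitial markers, 1 of the 10 had every S14R/+ library above, Sparc, against 24.9% of all genes. The 95% intervals of the 10 lay between 0.637 and 1.33 times the wild-type level.

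Tnc was among the lower genes in this experiment. It stood at 172, 176 and 181 CPM in S14R/+, against 182, 185 and 208 CPM in the wild type, so that the highest S14R/+ library lay just below the lowest wild-type one. Its log2 fold change was -0.11 ± 0.0471 (SE), with an adjusted p of 0.828 in edgeR. Tnxb, 24.5, 18.4 and 21.3 CPM in S14R/+ and 23.3, 24.1 and 23.4 CPM in the wild type, overlapped between the groups.

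Thbs2 and both matrilins had the largest differences. Thbs2 stood at 53.8, 53.3 and 49.1 CPM in S14R/+, against 50.4, 70.4 and 78.3 CPM in the wild type, where replicate 1 lay inside the S14R/+ range. The difference in log2 was -0.34 ± 0.125 (SE; adjusted p = 0.822 in edgeR). Without wild-type replicate 1 it was -0.50 and edgeR called it (adjusted p = 0.0440), along with 0.0122% of all genes. Matn4 stood at 10.1, 10.99 and 9.51 CPM in S14R/+, against 13.9, 12.0 and 11.1 CPM in the wild type, and the groups were separated by a narrow gap. Matn4 had a log2 fold change of -0.26 ± 0.0936 (SE; adjusted p = 0.822 in edgeR). Matn2 stood at 9.62, 8.15 and 8.80 CPM in S14R/+, against 8.98, 10.8 and 14.1 CPM in the wild type, with wild-type replicate 3 alone far above the rest. Without that library its log2 fold change was -0.16 in place of -0.34.

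The remaining members stood closer to the wild-type level, Comp excepted. Postn stood at 611, 626 and 599 CPM in S14R/+ and 653, 690.2 and 606 CPM in the wild type. Thbs1 stood at 525, 508 and 545 CPM in S14R/+ and 576, 491 and 565 CPM in the wild type. Their log2 fold changes were -0.08 ± 0.0568 and -0.04 ± 0.0574 (SE). Fn1, at 3168, 3081 and 3338 CPM in S14R/+ and 3196, 3137 and 3347 CPM in the wild type, had a 95% interval of 0.912 to 1.10 times the wild-type level. Sparc, at 883, 925 and 892 CPM in S14R/+ and 816, 962 and 977 CPM in the wild type, had one of 0.890 to 1.10 times. Comp was the 1 member with a positive value, 6.24, 5.08 and 6.03 CPM in S14R/+ against 5.19, 5.30 and 5.02 CPM in the wild type, with a log2 fold change of 0.17 ± 0.104 (SE). The interstitial and fibroblast markers summed to 6571 to 7005 CPM in S14R/+ and 6907 to 8755 CPM in the wild type, with 9 of those 10 markers at negative values. Leukocyte markers summed to 82.3 to 91.2 CPM in S14R/+ and 93.6 to 117 CPM in the wild type, with 6 of 7 negative. Erythroid and platelet markers summed to 121 to 240 CPM in S14R/+ and 227 to 440 CPM in the wild type, with 4 negative and 1 positive. Cardiomyocyte markers summed to 48271 to 48641 CPM in S14R/+ and 41846 to 46666 CPM in the wild type, with 13 of 14 positive. Over all tested genes 49.9% were positive. The part of these shifts in the members' lower values was not tested. In the authors' deposited table of this experiment 0 of the 10 members are below 0.05 (0.0885% of its genes), with adjusted p from 0.812 to 0.995. Its fold changes correlate at -0.325 with those of the labelled groups across genes, against 0.702 in the Ift88 table. Which libraries the authors compared is not stated. Neither the direction of these fold changes nor their adjusted p-values are therefore read as a result for S14R/+.

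**Figure D4:**
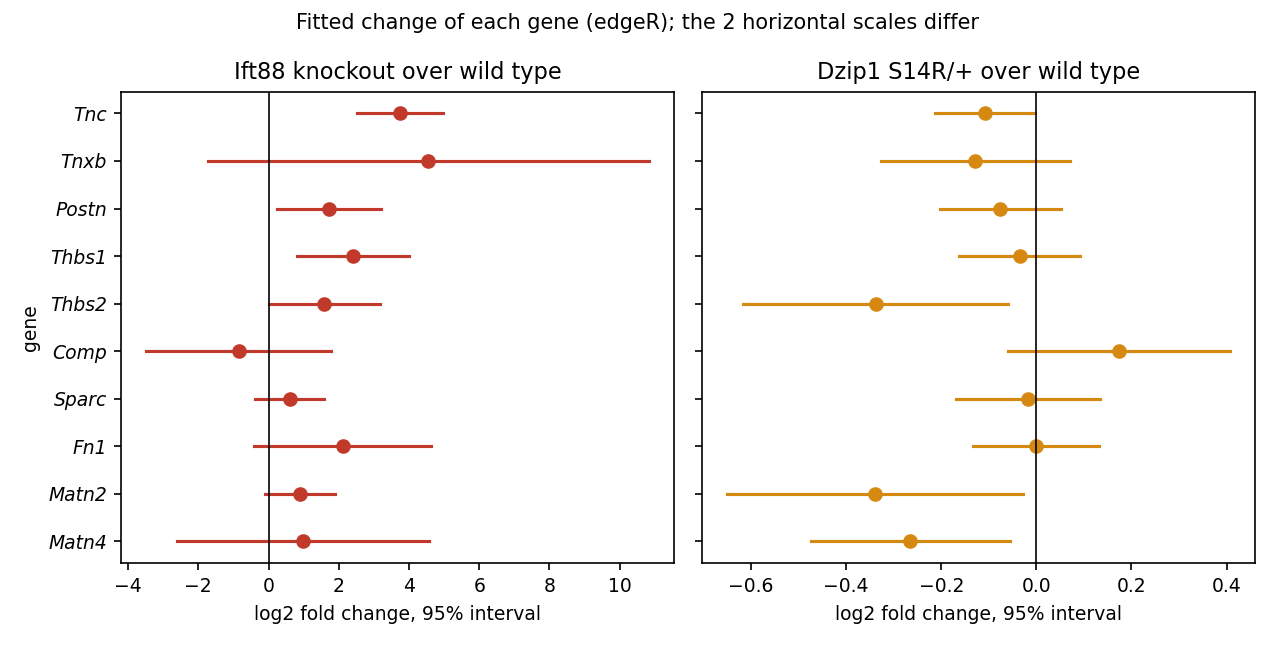
Log2 fold change with its 95% interval for each gene, Ift88 knockout over wild type (left) and Dzip1 S14R/+ over wild type (right), on different horizontal scales. The interval of Tnc runs from 2.52 to 4.97 in the Ift88 experiment and from -0.21 to -0.0033 in the Dzip1 experiment.

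Levels of different genes were compared per kb of transcript. In the Dzip1 experiment Sparc led, at 659 ± 16.2 CPM per kb in S14R/+ and 672 ± 65.2 CPM per kb in the wild type (SD, n = 3 each), and both groups had the genes in the same order. In S14R/+ the CPM per kb of Fn1 was 384, of Postn 229, of Thbs1 89.9, of Tnc 24.8, of Thbs2 8.83, of Matn4 4.43, of Matn2 2.48, of Comp 2.39 and of Tnxb 1.75. In the wild type the CPM per kb of Fn1 was 388, of Postn 243, of Thbs1 93.0, of Tnc 26.9, of Thbs2 11.3, of Matn4 5.36, of Matn2 3.16, of Comp 2.14 and of Tnxb 1.93. In S14R/+ Matn2 and Comp overlapped, and in the wild type no neighbours in this order did. In the Ift88 experiment Sparc also led, at 1942 ± 295 CPM per kb in the knockout (SD, n = 3) and 1190 ± 284 in the wild type (SD, n = 2), but Postn came before Fn1. Postn had 881 CPM per kb in the knockout and 260.1 in the wild type, and Fn1 had 143 in the knockout and 33.3 in the wild type. In the knockout, Thbs1 and Thbs2 overlapped, as did Matn2 and Tnc, and Comp and Matn4. In the wild type, each neighbouring pair from Fn1 down to Tnc overlapped, so that order is not resolved. Tnc had place 7 of 10 in the knockout and place 9 in the wild type of this experiment, and place 5 in both groups of the other. The 2 tables were made apart and these orders were set side by side without a test.

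**Figure D5:**
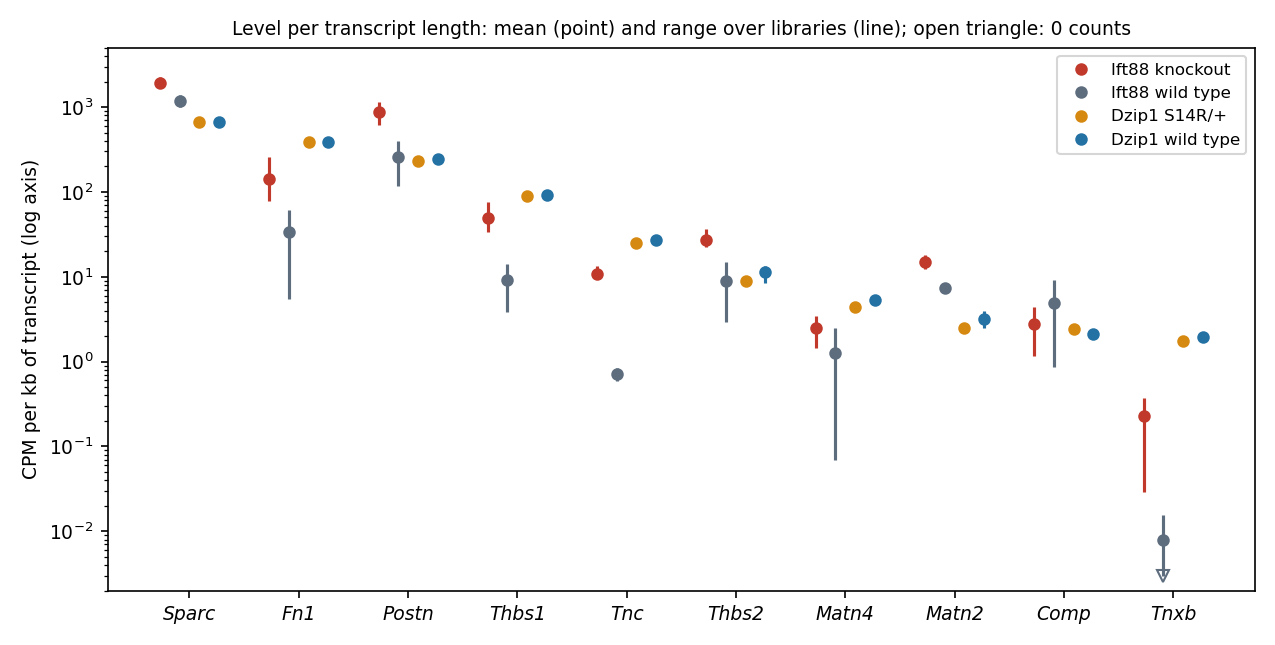
Level of each gene in CPM per kb of transcript (log axis), mean and range over the libraries of each group, ordered by the Dzip1 wild type. Sparc leads in all 4 groups, and Fn1 stands at 384 CPM per kb in S14R/+ and 388 in its wild type, and at 143 in the Ift88 knockout and 33.3 in its wild type.

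Relatives, receptors and other matricellular genes were read from lists chosen with earlier results of these data known. In the Ift88 experiment edgeR called 0 members of each list (0% of all genes). At an unadjusted p under 0.05 it had 0 relatives, 2 receptors and 2 other matricellular genes (6.01% of all genes). The 10 tested relatives of the members had a median log2 fold change of 1.41 (-0.01 over all genes), with 8 positive (49.4% of all genes) and 5 whose knockout libraries all lay above the wild type (15.4% of all genes). Tgfbi, the paralogue of periostin, stood at 77.3, 54.2 and 58.4 CPM in the knockout and 5.45 and 40.5 CPM in the wild type, with a log2 fold change of 1.47 ± 0.759 (SE). Spock2, a SPARC relative, had 2.30 ± 1.37, and Fstl1, another, 0.82 ± 0.499. The 15 tested receptors had a median of 0.72, with 12 positive and 5 without overlap, to be read against the same shares of all genes. Itga9, an integrin subunit that binds tenascin C, stood at 75.6, 65.1 and 62.6 CPM in the knockout, against 7.58 and 34.0 CPM in the wild type, and had 1.68 ± 0.604 (SE). Lrp1, a receptor that clears thrombospondins, had 2.35 ± 0.862. Itga4, a fibronectin-binding subunit, had 330, 411 and 0 counts in the knockout and 2 counts in each wild-type library, so knockout replicate 3 went with the wild type.

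The 7 tested genes of the third list, other matricellular proteins, had a median of 0.58 in the Ift88 experiment. All were positive (49.4% of all genes), and DESeq2 called 2 of them (1.53% of all genes). Ctgf, which encodes the connective tissue growth factor CCN2, stood at 267, 463 and 233 CPM in the knockout, against 59.4 and 88.8 CPM in the wild type. For Ctgf the fitted log2 difference was 2.01 ± 0.440 (SE), with an adjusted p of 0.802 in edgeR and 0.00627 in DESeq2. Spp1, which encodes osteopontin, stood at 4.18, 2.21 and 33.9 CPM in the knockout and 0.350 and 0.669 CPM in the wild type, with knockout replicate 3 far above the others (adjusted p = 0.0426 in DESeq2). Wisp1, or CCN4, had 1.01 ± 0.916 (SE), and its wild-type libraries, at 100.1 and 11.1 CPM, lay on either side of a wide gap.

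In the Dzip1 experiment edgeR and DESeq2 called 0 members of the 3 lists (0% of all genes). The 11 tested relatives had a median of -0.14, with 8 negative and 3 positive (49.9% of all genes were positive). Of them 3 had an unadjusted p under 0.05 in edgeR on the lower side (3.53% of all genes). Thbs3, a thrombospondin that forms pentamers like Comp, stood at 34.2, 32.0 and 30.9 CPM in S14R/+, against 36.6, 37.4 and 37.6 CPM in the wild type. The groups were separated, and its log2 fold change was -0.19 ± 0.0510 (SE; adjusted p = 0.822 in edgeR and 0.299 in DESeq2). Spock2 had -0.42 ± 0.153 and Spock1 -0.78 ± 0.298 (SE). The 15 receptors had a median of 0.001, and the smallest p among them belonged to Lrp1, at -0.12 ± 0.0521, followed by Stab1, at -0.09 ± 0.0482, and Itga8, at -0.08 ± 0.0535. The 8 other matricellular genes had a median of -0.0025, and Nov, Wisp2 and Wisp3 led them by p with -0.37, 0.56 and 0.36. The groups overlapped in each, and Wisp2 and Wisp3 were scarce, at 8 to 24 and 26 to 82 counts per library.

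The genes whose pattern lay nearest to that of Tnc, Postn and Fn1 were sought among 12180 genes tested in both experiments. Likeness was the root mean square difference of log2(CPM + 1) over the 11 libraries, each gene centred on its mean in its own table. Nearest to Tnc were Plxnb1, a semaphorin receptor, at 0.132, Frmpd1 at 0.219 and Hivep1 at 0.237, where Tnc itself varied by 1.23 on this scale. Plxnb1 stood at 16.3, 11.6 and 19.3 CPM in the Ift88 knockout, against 0.637 and 0.186 CPM in the wild type. Nearest to Postn were Synj1 at 0.121, Six4 at 0.130 and the receptor gene Notch1 at 0.133. Notch1 stood at 136, 107 and 98.8 CPM in the knockout, against 12.8 and 46.7 CPM in the wild type. Nearest to Fn1 were Ptprb, a phosphatase of endothelium, at 0.182, Lyve1, a hyaluronan receptor of lymphatic endothelium and macrophages, at 0.196, and Dlg5 at 0.209. Ptprb stood at 167, 361 and 164 CPM in the knockout and 10.4 and 87.7 CPM in the wild type, and its highest library, knockout replicate 2, was also that of Fn1. These libraries share their cell content and depth, and most of the spread lies in the 5 libraries of the Ift88 experiment.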

How the data were processed

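RNA of mouse mitral leaflets was measured in 11 libraries, made with the SMART-Seq v4 kit per the labels' protocols. The titles of the Ift88 libraries are marked as re-analyzed, those of the Dzip1 libraries are not, and the labels do not explain the mark. The deposited tables hold raw counts per gene and library. The tools named in the submitters' processing notes are cutadapt 1.11, FastQC 0.11.5, HTSeq, DESeq and DESeq2, with GRCm38. No aligner, annotation or strand setting is given there or in the labels. The log2 fold changes and the adjusted p-values in the tables were deposited by the authors. The tables are named as knockout against wild type for Ift88 and as wild type against KIN, the S14R/+ columns, for Dzip1. The libraries compared and the direction of the fold changes are not stated beyond these names.

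Levels are CPM over the library total. Tests used edgeR 4.0.16 (R 4.3.3; quasi-likelihood, TMM, filterByExpr defaults, each table apart), Benjamini-Hochberg over all tested genes, threshold 0.05, on samples grouped by the labelled genotype. DESeq2 1.42.0 and limma 3.58.1 (voom) were alternatives. Steps were tested on simulated data. Transcript lengths (longest coding transcript) came from GENCODE M21 for 25325 of 28591 symbols. Counts of the most similar library pair gave a chi-squared over degrees of freedom of 11.2, so no library was taken as a copy. The text names the 10 members, the targeted genes, up to 3 genes per list by smallest p, and the 3 most alike genes. Members and lists were chosen with earlier results of these data known.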

Additional observations from a re-analysis of the deposited data

Results flagged for a closer look

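In 5 of the 10 genes every Ift88 knockout library lay above the mean of its wild type while every Dzip1 S14R/+ library lay below the mean of its own, as in 10.1% of the 12979 genes tested in both. The log2 fold changes in the Ift88 and then the Dzip1 experiment were 3.75 and -0.11 for Tnc, 1.73 and -0.076 for Postn, 1.58 and -0.34 for Thbs2, 0.91 and -0.34 for Matn2, and 0.99 and -0.26 for Matn4. The difference between the experiments was not tested, and no gene passed in edgeR in either.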

How the results depend on the processing

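edgeR called 0 of the 10 genes in each experiment. In the Ift88 experiment DESeq2 called 2, and edgeR called 0 with any 1 knockout library left out. Calls are not given for fits that leave 1 wild-type library. The members' median log2 fold change of 1.65 was 1.04 after the correction for transcript length and 3.12 in the libraries titled IR28N alone (2 knockout, 1 wild type). It was 2.24 with a covariate for having the IR28N prefix or not, which pools the remaining libraries although their titles differ. With 1 library left out it ranged from 1.16 to 3.14, highest without wild-type replicate 2. Comp ranged from -1.71 to 1.34 with 1 library left out, positive without wild-type replicate 2, and turned to 1.71 in the IR28N libraries alone, and the other 9 genes kept their direction in all 16 alternatives. In the Dzip1 experiment 0 to 1 of the 10 were called with 1 library left out. The 1 was Thbs2 without wild-type replicate 1, where 0.0122% of all genes were called. Fn1 changed sign without a filter (0.0018), after the length correction (0.0058), and with 1 library left out (-0.035 to 0.025), where Sparc (-0.096 to 0.028) and Thbs1 (-0.095 to 0.0083) did too. The causes were not tested. No paired analysis was possible because the labels give no replicate numbers shared between the groups. Where 1 wild-type library is left, it is assumed to vary like the knockout libraries. Whether deeper sequencing would change any call was not tested.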

Other observations

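Within the summed counts of the 10 genes, Fn1 took 10.98, 28.4 and 11.1% in the Ift88 knockout and 2.56 and 13.7% in its wild type, but 56.9 to 59.1% in S14R/+ and 56.1 to 57.9% in its wild type. Postn took 27.8 to 44.1% in the Ift88 knockout and 17.5 and 29.0% in its wild type, against 10.6 to 11.6% in S14R/+ and 10.4 to 12.4% in its wild type. The 2 experiments were deposited in separate tables, their labels give no age, and this difference was not tested.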
